A study of Mus musculus with 8 samples.

Results

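The spindle assembly checkpoint is the surveillance system that holds a dividing cell in mitosis until every chromosome is attached to spindle microtubules. Kinetochores without attachment recruit the kinases TTK (also called MPS1) and BUB1, which bring in the MAD1-MAD2 complex, and a soluble complex of MAD2, BUBR1, BUB3 and CDC20 then blocks the anaphase-promoting complex (APC/C), the ubiquitin ligase that marks cyclin B and securin for destruction. In the mouse zygote and 2-cell embryo, most of these components are at first inherited from the oocyte, as protein or as stored mRNA. The genes described here are Ttk, Bub1, Bub1b (which encodes BUBR1), Bub3, Mad1l1, Mad2l1, Mad2l1bp and Zw10. They were chosen by symbol, with the Ttk difference between injected groups already known, and make up 8 of the 52636 Ensembl identifiers in the count table. Each symbol matched 1 identifier, and all 8 genes were among the 13641 that passed the filter on low counts.

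The study asked what happens to mouse zygotes when intracellular zona pellucida protein 3 (ZP3) is removed by Trim-away, in which an injected antibody marks its target and the ubiquitin ligase TRIM21 sends both to the proteasome. All embryos were wild-type B6C3F1 x CD1, fertilised in vivo after hormone priming and mating, collected from oviducts and cultured in KSOM with amino acids. Both injected groups received, at 15 h after hCG, oregon green dextran beads at 0.02 mg/mL together with mCherry-Trim21 mRNA at 0.2 mg/mL. The ZP3 Trim-away group (3 libraries) also received anti-ZP3 antibody (1 mg/mL), and the buffer group (4 libraries) received antibody buffer in its place. A further library was made of non-manipulated embryos. The study's text differs from the labels in how many libraries each injected group had, in the concentrations and in the hour of injection, and the labels were followed here. RNA was taken on the day after injection, when the buffer and non-manipulated embryos were at the 2-cell stage (E1.5) and the ZP3 Trim-away embryos were still at the 1-cell stage (E0.5), so that the antibody and the stage cannot be told apart. Each library pooled several embryos, and fewer cells of a type and less RNA per cell cannot be told apart in such samples. The labels call the libraries biological replicates without naming separate litters or injection days, so p-values measure the spread between these libraries.

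Library totals ranged from 13228428 to 15379933 counts in the ZP3 Trim-away group and from 17615416 to 22427747 in the buffer group, and the non-manipulated library held 22248022. Trim21, the transcript that both injected groups should carry, was at 956.9 to 8645.6 CPM (read counts scaled to library size) in the buffer group and at 2124.4 CPM in ZP3 Trim-away replicate 1, but had 0 counts in replicate 2 and 55 counts, or 3.54 CPM, in replicate 3. Without manipulation it also had 0. Replicates 2 and 3 thus go against their label in this transcript, and the 3 libraries are called labelled ZP3 Trim-away below, with values given also for replicate 1 alone. Zp3 mRNA, which the antibody does not target, was at 105.3 to 141.2 CPM in the buffer group and at 28.3 to 55.7 CPM in the labelled ZP3 Trim-away libraries. The 6 oocyte and early embryo markers were all detected and summed to 438.7 to 759.2 CPM in the buffer group, 1105.4 to 2074.2 CPM in the labelled ZP3 Trim-away libraries and 341 CPM in the non-manipulated library. Among 7 cumulus and granulosa markers Ptx3, Fshr and Amh were at 0 in all libraries, and the list summed to 1.16 to 20.98 CPM in the buffer group, 7.82 to 48.8 CPM in the labelled ZP3 Trim-away libraries and 0 CPM without manipulation. The lists for spermatozoa (Tnp1 and Tnp2 at 0), oviduct epithelium and blood (Hbb-bt at 0) reached at most 4.05, 18.2 and 6.22 CPM in any library. The part of these markers in the results below was not tested.

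No motif that was searched was found in the promoters of all 8 genes. In the RefSeq promoters (GRCm38.p6, 250 bases before to 50 after each annotated start), 2 short motifs known from genes that peak late in the cell cycle were searched on both strands. These are the cell cycle genes homology region (CHR, searched as TTTGAA or TTCGAA), where the DREAM and B-MYB-MuvB complexes bind, and the CCAAT box (CCAAT), where NF-Y binds. All 8 genes had at least 1 promoter in the table. A CHR was found for 5 of them (Ttk, Bub1, Bub1b, Bub3 and Zw10), beside 19.2% of all 32851 promoters, and a CCAAT box for 4 (Ttk, Bub1, Bub1b and Bub3), beside 37.4%. Mad1l1, Mad2l1 and Mad2l1bp had neither in this window. The 8 genes were counted by gene, with a match in any promoter, whereas the shares were counted by promoter. Bub3 and Mad1l1 had 2 promoters each, which gave the same result within each gene. The CHR windows are given because they are the feature that Ttk shares with most of the other genes. Each window is read 5′ to 3′ on the strand of its gene, the capitals mark the CHR, and TTCAAA is TTTGAA on the opposite strand.
Ttk, chr9:83834684-83834713: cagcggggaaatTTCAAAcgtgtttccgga
Bub1, chr2:127831828-127831857: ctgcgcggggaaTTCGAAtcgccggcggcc
Bub1b, chr2:118598011-118598040: tctctccctgggTTCGAAggcttgtcttag
Bub1b, chr2:118598231-118598260: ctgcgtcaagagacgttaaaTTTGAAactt
Bub3, chr7:131560315-131560344: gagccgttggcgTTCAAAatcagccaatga
Zw10, chr9:49055421-49055450: aacagactggcgTTTGAAaacctgtaggga
The CHR of Ttk and of Bub1 begins 8 and 15 bases into the transcribed region, and that of Bub3 lies 43 bases before the more upstream of its 2 annotated starts. Ttk also has CCAAT boxes that begin 65 and 28 bases before its start, shown here in capitals because both sit upstream of its CHR.
Ttk, chr9:83834612-83834641: cgacgcaaggagCCAATcacggcccacgct
Ttk, chr9:83834649-83834678: ggcgagccgtaaCCAATgagaggtagcggg
These motif matches are a description of the letters and not of binding. The 4 genes with both motifs had log2 fold changes between the injected groups of 3.17 (Ttk), 0.43 (Bub1), -0.28 (Bub1b) and -1.99 (Bub3).

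Ttk, the kinase at the top of the checkpoint, differed most between the injected groups of the 8 genes. It lies on chromosome 9 (83834689 to 83872389, plus strand, GRCm38) with 4919 bases of exon. Its level was 50.1, 88.0, 113.4 and 93.1 CPM in buffer replicates 1 to 4 and 901.6, 773.1 and 644.9 CPM in labelled ZP3 Trim-away replicates 1 to 3. The groups did not overlap, and the lowest labelled ZP3 Trim-away library stood 5.69-fold above the highest buffer library. The means were 86.1 ± 26.4 CPM (SD, n = 4) and 773.2 ± 128.3 CPM (SD, n = 3), an 8.98-fold difference, with a log2 fold change of 3.17 (SE 0.30). These are the values through which the gene was chosen, so they carry no test here. The difference was there whether Trim21 was detected or not, as the 3 replicates lay within 1.40-fold of each other, and with replicate 1 as the sole labelled ZP3 Trim-away library the log2 fold change was 3.36. Leaving out each of the 7 libraries in turn gave 2.98 to 3.33. The non-manipulated library had 26.8 CPM (615 counts), below every buffer library, so that the buffer mean was 3.22-fold and the labelled ZP3 Trim-away mean 28.9-fold above it.

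Bub1 encodes the kinase that phosphorylates histone H2A at centromeres and binds phosphorylated KNL1 at kinetochores, in a step that TTK activity sets up. It lies on chromosome 2 (127801122 to 127831865, minus strand, 4354 bases of exon). Its level was 158.4, 141.7, 128.4 and 88.1 CPM in the buffer replicates and 170.2, 214.7 and 138 CPM in the labelled ZP3 Trim-away replicates. The groups overlapped, and the log2 fold change was 0.43 (SE 0.30), or 0.37 with replicate 1 alone. The non-manipulated library, at 71.8 CPM, was below all 7 injected libraries.

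Bub1b encodes BUBR1, a relative of BUB1 that inhibits the APC/C and recruits the phosphatase PP2A to kinetochores. It lies on the same chromosome (118598211 to 118641591, plus strand, 4275 bases of exon). The buffer replicates had 17.8, 12.4, 13.1 and 9.65 CPM. The labelled ZP3 Trim-away replicates had 23.3, 2.46 and 7.07 CPM, from 271, 38 and 110 counts, so that replicate 1 was above every buffer library and replicates 2 and 3 were below all of them. The log2 fold change of -0.28 (SE 0.97) changed sign to 0.18 without replicate 2 and to 0.78 with replicate 1 alone. No direction can be given for this gene. The non-manipulated library had 5.35 CPM.

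Bub3, the WD40 protein that carries BUB1 and BUBR1 to kinetochores, stood lower in all 3 labelled ZP3 Trim-away libraries. It lies on chromosome 7 (131560222 to 131571895, plus strand, 7006 bases of exon). Its level was 599.7, 422, 464.9 and 520.7 CPM in the buffer replicates and 260.8, 37.9 and 80.0 CPM in the labelled ZP3 Trim-away replicates. The groups did not overlap, with a gap of 1.62-fold between the nearest libraries. The means were 501.8 ± 76.8 CPM (SD, n = 4) and 126.2 ± 118.4 CPM (SD, n = 3), and the log2 fold change was -1.99 (SE 0.58). The size of the difference depended on the library. It was -0.97 with replicate 1 alone and ranged from -3.09 to -1.57 when single libraries were left out, the lowest value being that without replicate 1. The non-manipulated library had 448.6 CPM, inside the buffer range.

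Mad1l1 and Mad2l1 encode MAD1 and MAD2, the pair whose kinetochore-bound form converts further MAD2 into the shape that binds CDC20. Mad1l1 lies on chromosome 5 (140008689 to 140321552, minus strand, 3649 bases of exon, of which 37 are shared with Gm16121 on the opposite strand). It was the least evenly detected gene, at 13.7, 32.4, 10.4 and 11.8 CPM in the buffer replicates and at 2.49, 0 and 24.7 CPM in the labelled ZP3 Trim-away replicates, where the 0 counts of replicate 2 allow up to 0.195 CPM (3 counts). The groups overlapped, and the log2 fold change of -0.91 had a standard error of 1.59. The non-manipulated library held 10 counts (0.435 CPM), 23.9-fold under the lowest buffer library. Intervals and limits from counts cover counting error only, since the reads carry no molecular identifiers.

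Mad2l1 lies on chromosome 6 (66535390 to 66547220, plus strand, 8390 bases of exon) and had the highest CPM of the 8 genes in 6 of the 8 libraries. The buffer replicates had 848, 1165.5, 729.8 and 1669.5 CPM and the labelled ZP3 Trim-away replicates 2382.7, 1164.5 and 1223.9 CPM. Replicate 1 was above the buffer range while replicates 2 and 3 were inside it, and the log2 fold change was 0.53 (SE 0.36), or 1.08 with replicate 1 alone. The non-manipulated library had 974.9 CPM, also inside the buffer range. Of the 8 genes, Mad2l1 alone had a near-identical stretch (at least 95% over 100 bases) in another gene's transcript. The longest was 454 bases of the processed pseudogene Gm42430, which held 6 counts over all 8 libraries. A stretch of 118 bases was shared with Dbf4, which held 61879 counts, and others with Gm37349 (122 bases, 0 counts) and F530104D19Rik (103 bases, 162 counts), so how reads from these stretches were assigned is uncertain.

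Mad2l1bp encodes p31comet, which binds the closed form of MAD2 and, with the ATPase TRIP13, takes the checkpoint complex apart. It lies on chromosome 17 (46147387 to 46153553, minus strand, 1272 bases of exon). Its level in the buffer group was the most even of the 8 genes, at 858.2, 893, 892.1 and 968.6 CPM, a coefficient of variation of 5.17% beside a median of 62.2% over all genes tested. The labelled ZP3 Trim-away replicates had 245.5, 634.2 and 577.4 CPM, all below the buffer range, with 1.35-fold between the nearest libraries. The log2 fold change was -0.89 (SE 0.32), and here replicate 1 was the lowest library, with -1.91 on its own and -0.58 without it. The non-manipulated library had 760.1 CPM, 1.13-fold under the lowest buffer library.

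Zw10 is the subunit that names the ROD-ZW10-ZWILCH complex, which brings MAD1-MAD2 and dynein to kinetochores. It lies on chromosome 9 (49055613 to 49078775, plus strand, 3827 bases of exon). Its level was 56.3, 67.3, 63.9 and 22.8 CPM in the buffer replicates and 104, 138.7 and 53.3 CPM in the labelled ZP3 Trim-away replicates, and the groups overlapped through replicate 3. The log2 fold change was 0.91 (SE 0.48), and 0.95 with replicate 1 alone. The non-manipulated library had 8.18 CPM, 2.79-fold under the lowest buffer library.

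**Figure D1:**
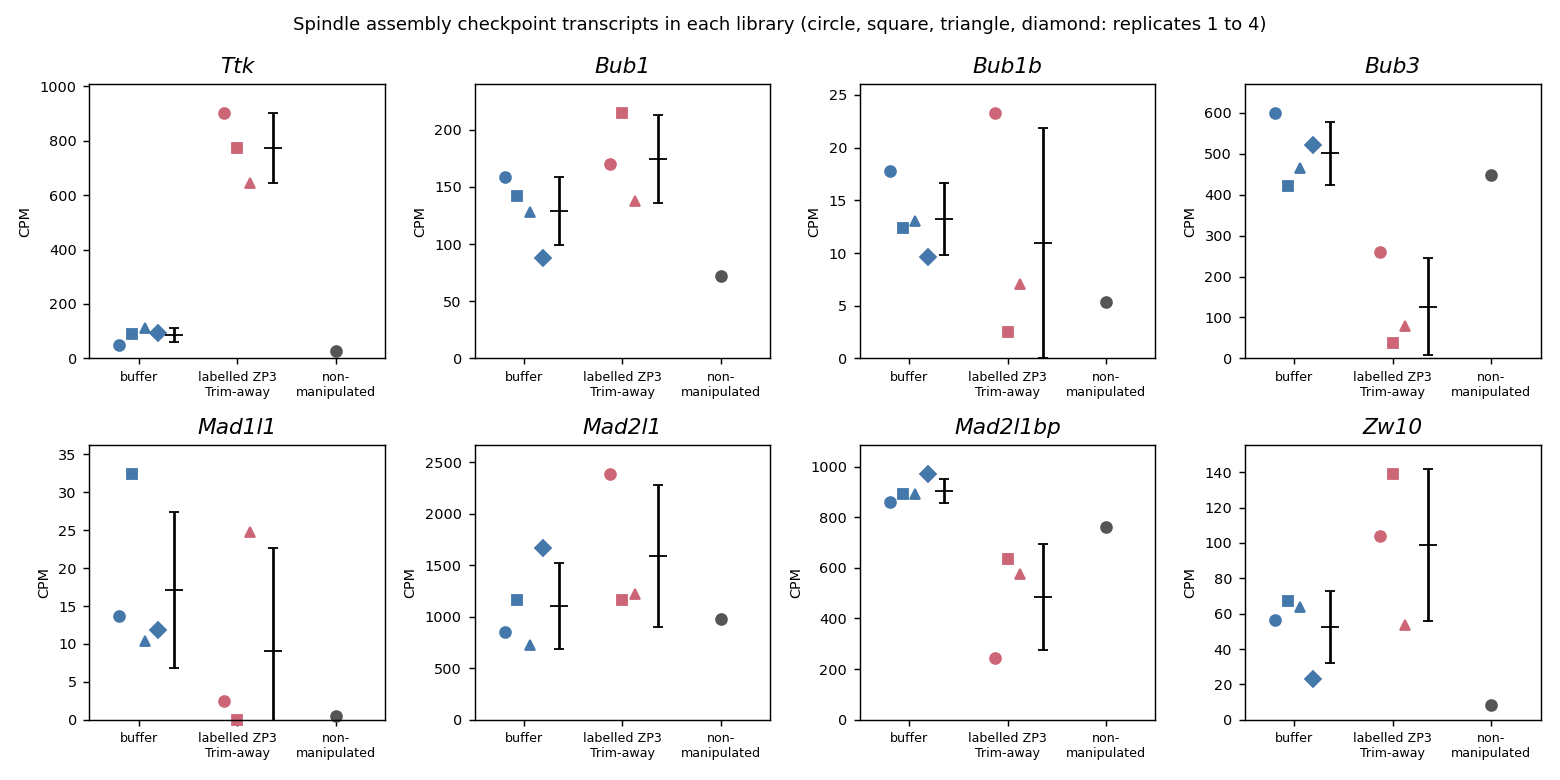
CPM of the 8 checkpoint genes in each library (y axis, linear from 0, a different range in each panel), by group on the x axis, with a point per library and the mean and SD beside it (n = 4 buffer, n = 3 labelled ZP3 Trim-away, the lower bar stopping at 0). Ttk stands at 644.9 CPM or more in the labelled ZP3 Trim-away libraries and at 113.4 CPM or less in the buffer group, Bub3 and Mad2l1bp lie below the buffer range without overlap, and the groups of the other 5 genes overlap.

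Over the 8 genes, 1 was past an adjusted p of 0.05 in the comparison of the injected groups by edgeR (Ttk, higher), beside 6.90% of the 13641 genes tested. Higher calls made up 2.98% and lower calls 3.91%. The groups did not overlap for 3 of the 8 genes, 1 higher and 2 lower, beside 28.6% of all genes. Because the Ttk difference was known when the genes were chosen, nothing is read from these counts. The log2 fold change was above 0 for 4 genes (Ttk, Zw10, Mad2l1 and Bub1) and below 0 for 4 (Bub3, Mad1l1, Mad2l1bp and Bub1b), with a median of 0.08 beside -0.04 over all genes tested. The count of genes called was 2 with labelled ZP3 Trim-away replicate 1 alone, Ttk and Mad2l1bp, and 2 without that replicate, Ttk and Bub3. The sign of the log2 fold change was the same in every alternative tried for each gene but Bub1b, although for Mad1l1 the standard error exceeded the value itself.

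Ratios within a library do not depend on how libraries are scaled to each other, and they set the counts of partners side by side. There were 0.316 to 1.06 Ttk counts for each Bub1 count in the buffer group, 0.373 in the non-manipulated library, and 5.30, 3.60 and 4.67 in labelled ZP3 Trim-away replicates 1 to 3. Bub3, the carrier of BUB1, had 2.98 to 5.91 counts for each Bub1 count in the buffer group and 6.25 without manipulation, but 1.53, 0.177 and 0.579 in the labelled ZP3 Trim-away replicates. The ratio of Mad2l1bp to Mad2l1, the antagonist to its target, was 0.580 to 1.22 in the buffer group, 0.780 without manipulation, and 0.103, 0.545 and 0.472 in the labelled ZP3 Trim-away replicates. All 3 of these ratios were outside the buffer range in each labelled ZP3 Trim-away library, whereas the ratio of Bub1b to Bub1 was 0.0876 to 0.113 in the buffer group and 0.137, 0.0115 and 0.0512 in the labelled ZP3 Trim-away replicates, on both sides of it. The numerators of the first 3 ratios are the 3 genes whose groups did not overlap. Those ratios therefore largely restate the differences given above and carry no test.

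The summed level of the 8 transcripts was 2415.8 to 3384.1 CPM in the buffer group, 4090.6, 2965.6 and 2749.3 CPM in the labelled ZP3 Trim-away replicates, and 2296.1 CPM in the non-manipulated library. The sums of the injected groups overlapped, but Ttk made up 1.93% to 4.69% of the sum in the buffer group and 22.04%, 26.1% and 23.5% in the labelled ZP3 Trim-away replicates. In the non-manipulated library its share was 1.17%. Bub3 took 15.0% to 23.1% of the sum in the buffer group and 6.38%, 1.28% and 2.91% in the labelled ZP3 Trim-away replicates.

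To compare levels between genes, CPM was divided by the summed exon length in kilobases. In the buffer group the order of mean levels was Mad2l1bp (709.9 CPM per kilobase), Mad2l1 (131.5), Bub3 (71.6), Bub1 (29.7), Ttk (17.5), Zw10 (13.7), Mad1l1 (4.68) and Bub1b (3.10). The ranges of the 4 libraries separated Mad2l1bp from Mad2l1, Mad2l1 from Bub3 and Bub3 from Bub1, while each neighbouring pair further down overlapped. The kinases Bub1 and Ttk thus came after the antagonist, MAD2 and the BUB carrier. In the labelled ZP3 Trim-away libraries Ttk moved from the fifth to the third place, at 157.2 CPM per kilobase, and overlapped Mad2l1 above it (189.6) but not Bub1 below it (40.0), whereas Bub3 went from the third to the sixth place at 18.02 CPM per kilobase. The place of Bub3 there was not sharp, as its range of 5.415 to 37.23 overlapped Bub1 and Zw10 above it and Bub1b below it. In the non-manipulated library the order was that of the buffer group, except that Bub1b (1.252) stood above Mad1l1 (0.119). The order depends on the length used. With the deposited RPKM, which divides by gene width with introns, Mad2l1 came before Mad2l1bp in the buffer group (186.7 and 148.1 RPKM) with overlapping ranges. In the labelled ZP3 Trim-away libraries it came before Mad2l1bp without overlap (257.2 and 78.6 RPKM), Ttk was again in the third place (21.5 RPKM), and Bub3 was in the fourth (10.2 RPKM), overlapping Ttk above it and Bub1 below it.

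**Figure D2:**
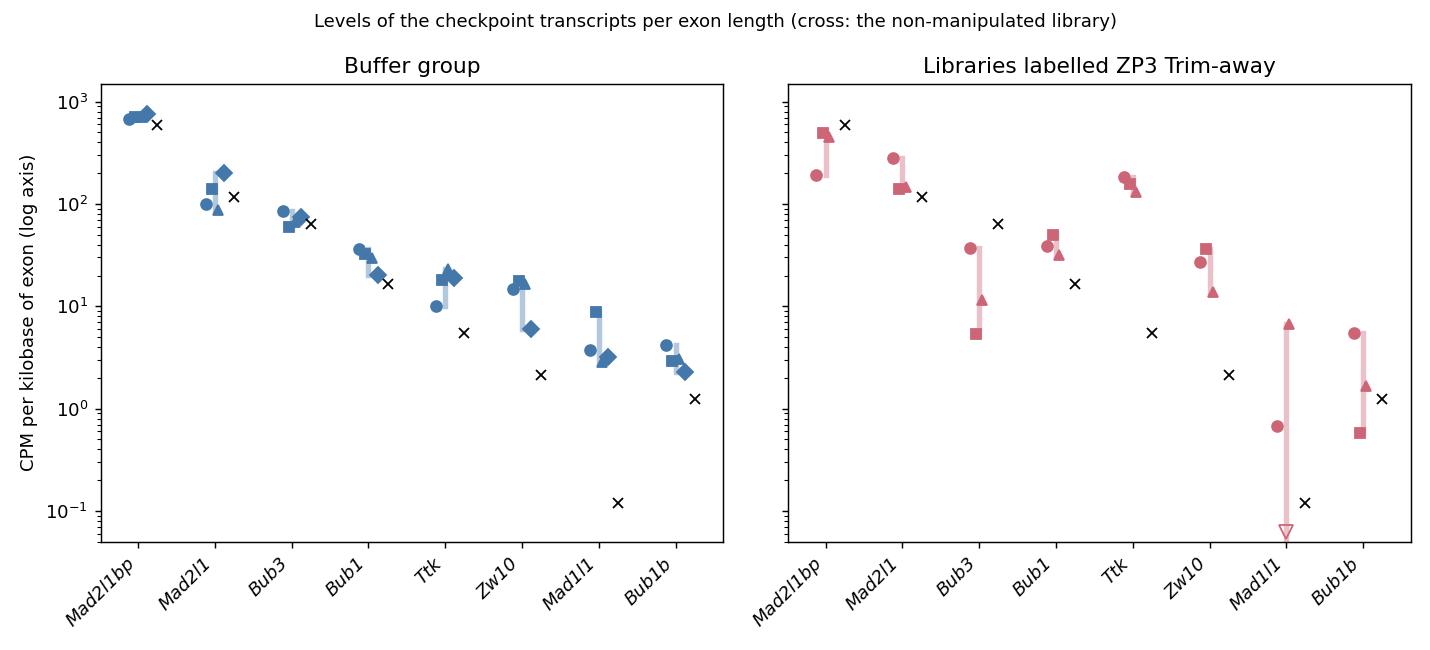
CPM per kilobase of exon (log axis) of the 8 genes, in the buffer order, for the 4 buffer libraries (left) and the 3 labelled ZP3 Trim-away libraries (right), with shaded lines for the range, the same symbols for replicates as before, a cross for the non-manipulated library and an open triangle for the library with 0 Mad1l1 counts. Ttk averages 17.5 in the buffer group and 157.2 in the labelled ZP3 Trim-away libraries, and Bub3 goes the other way from 71.6 to 18.02.

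The non-manipulated embryos were at the same labelled stage as the buffer group but had no injection, and this comparison played no part in choosing the genes. There is 1 such library, and its values were set beside the buffer range with no test. Its level was below the range of the 4 buffer libraries for 6 of the 8 genes (Ttk, Bub1, Bub1b, Mad1l1, Mad2l1bp and Zw10), within it for Bub3 and Mad2l1, and above it for 0. Over all genes tested, 17.1% were below the buffer range, 20.7% above it and 37.8% outside it on either side. The buffer mean over the non-manipulated value was 39.2-fold for Mad1l1, 6.42-fold for Zw10, 3.22-fold for Ttk, 2.47-fold for Bub1b, 1.80-fold for Bub1 and 1.19-fold for Mad2l1bp. Without buffer replicate 2 the count was 7, and it stayed at 6 without each of the other buffer libraries.

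The genes with levels most like Ttk were sought among the 7616 with a mean of at least 10 CPM, by Pearson's r of log2 CPM over the 8 libraries. These libraries fall into groups that differ in Ttk, so r describes mainly that difference and carries no test. The 5 highest were Umodl1 (0.991), Pgbd5 (0.990), Ifit1bl2 (0.990), Nudt7 (0.989) and Bach2 (0.984). Ifit1bl2, of the interferon-induced Ifit family, was at 22.2 to 68.8 CPM in the buffer group and 2049.1, 1195.1 and 956.1 CPM in the labelled ZP3 Trim-away replicates. Nudt7, a peroxisomal hydrolase of coenzyme A, was at 15.2 to 39.4 CPM and at 165.3, 133.3 and 109.8 CPM. Like Ttk, all 5 genes had their lowest level in the non-manipulated library (19.7 CPM for Ifit1bl2 and 9.96 CPM for Nudt7). As they were picked by r over the same libraries, nothing is read from this. Umodl1 reached the highest level of the 5 in the buffer group, at 426.8 to 691.7 CPM, and 1379.7 to 1762.9 CPM in the labelled ZP3 Trim-away libraries. Pgbd5, derived from a piggyBac transposase, and Bach2, a transcriptional repressor, stayed at or below 25.8 and 41.2 CPM.

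**Figure D3:**
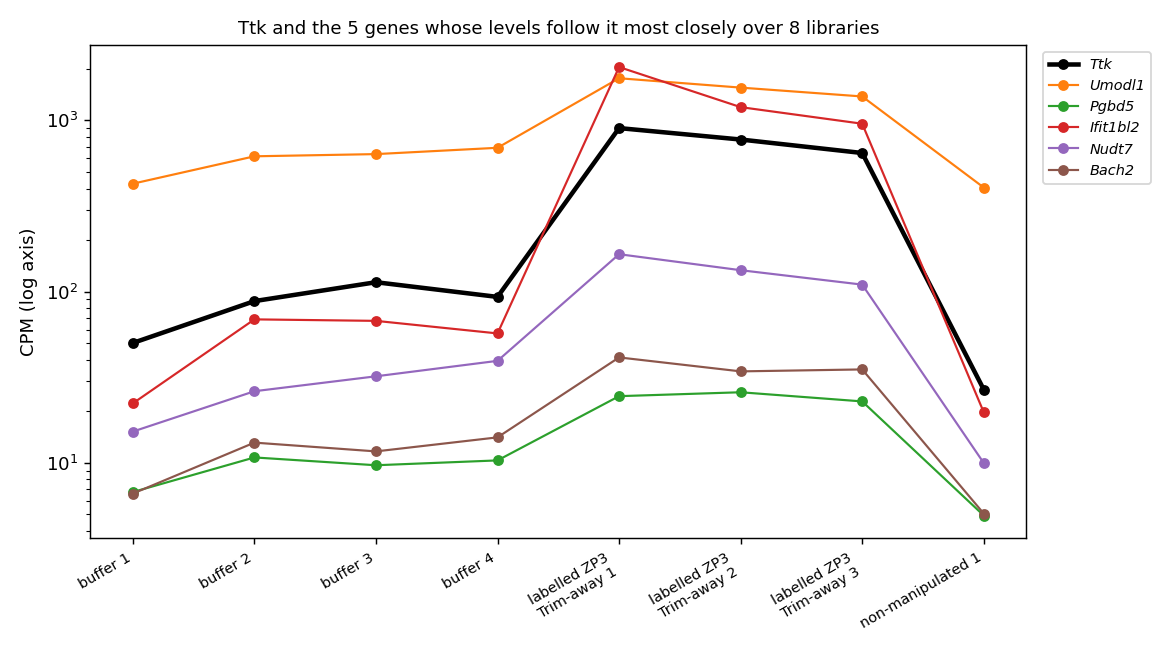
CPM (log axis) of Ttk and of the 5 genes with the highest Pearson's r to it, in each of the 8 libraries on the x axis, with a line per gene that joins the libraries only for the eye. All 6 genes stand higher in the 3 labelled ZP3 Trim-away libraries than in the other 5, and Ifit1bl2 spans the widest range, from 19.7 to 2049.1 CPM.

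Around the 8 genes, 61 further genes of the same pathway were taken in 5 lists written from their roles, and 60 passed the filter on low counts (Ppp2r5b did not). In the comparison of the injected groups by edgeR with adjustment over all genes, 1 rose, 4 fell and 55 did not pass. By DESeq2 and limma-voom Ccnb2 was likewise the sole gene that rose, while 12 and 7 fell. Over all genes, DESeq2 called 1275 higher and 1636 lower of the 25623 it fitted. By limma-voom 723 were higher and 689 lower of 13641. These 5 of 60 by edgeR stand beside 6.90% called over all genes tested. The groups did not overlap for 2 genes that were higher and 15 that were lower, beside 13.1% and 15.5% over all genes. The median log2 fold change of the 60 genes was -0.21, beside -0.04 over all genes. Of the 60, 35 had a value below 0.

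Among 17 checkpoint partners, 0 rose, 1 fell and 16 did not pass, with a median log2 fold change of -0.28. At an unadjusted p under 0.05 by edgeR there was 1 higher gene, Cenpf, and there were 4 lower. This level was reached by 2905 of the 13641 genes tested, and by 5 higher and 13 lower of the 60 list genes. Tpr, the nuclear pore protein that anchors MAD1 in interphase, fell from 528.1 ± 125.1 CPM (SD, n = 4) to 235.4 ± 47.5 CPM (SD, n = 3). Its log2 fold change was -1.17 (SE 0.27, edgeR adjusted p = 0.0372). It shares 380 bases of exon with Prg4 and Odr4 on the opposite strand. Trip13, the ATPase that works with the product of Mad2l1bp, was at 73.6 to 119.3 CPM in the buffer group and 22.9, 42.2 and 8.42 CPM in the labelled ZP3 Trim-away replicates, without overlap (edgeR adjusted p = 0.0644). Knl1, the kinetochore scaffold that TTK phosphorylates, had 103.1 ± 30.4 CPM (n = 4) and 41.7 ± 24.3 CPM (n = 3), and its edgeR adjusted p was 0.136. Spdl1, the dynein adaptor downstream of ZW10, had 801 and 529.8 CPM (edgeR adjusted p = 0.191).

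Of 8 listed genes of the KMN network, 0 rose, 1 fell and 7 did not pass, with a median log2 fold change of -0.48. This network is the microtubule-binding core of the kinetochore and platform of the checkpoint. Its member Knl1 is not among the 8, as it was counted above with the checkpoint partners. At an unadjusted p under 0.05, Nuf2 was the 1 higher gene among these 8, and 2 were lower (Spc25 and Ndc80). Spc25, an NDC80 complex subunit, was at 1081.8, 1214.9, 889.1 and 1455.4 CPM in the buffer replicates and at 466.3, 386.7 and 383.2 CPM in the labelled ZP3 Trim-away replicates, without overlap. Its log2 fold change was -1.49 (SE 0.23, edgeR adjusted p = 0.00969). Its partners in the same complex did not pass, with log2 fold changes of -1.06 (Ndc80), 1.14 (Nuf2) and -2.26 (Spc24), the last at 0 counts in replicate 1. Dsn1, of the MIS12 complex, had a log2 fold change of -0.44.

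Of 14 APC/C subunits, 0 rose, 2 fell and 12 did not pass, with a median log2 fold change of -0.17. At an unadjusted p under 0.05, Cdc27 was the 1 higher gene, and 3 were lower (Anapc11, Anapc7 and Anapc15). Anapc11, the RING subunit that binds the ubiquitin-carrying enzyme, was at 70.9 to 83.0 CPM in the buffer group and 15.6, 20.4 and 19.9 CPM in the labelled ZP3 Trim-away replicates (log2 fold change -2.03, SE 0.38, edgeR adjusted p = 0.0178). Anapc7, a scaffold subunit, was at 120.8 to 218.3 CPM and at 13.1, 55.8 and 32.0 CPM (log2 fold change -2.31, SE 0.52, edgeR adjusted p = 0.0321). Neither gene overlapped between groups, and in the non-manipulated library both were inside the buffer range (77.0 and 161.6 CPM). Anapc15, the subunit that helps the APC/C shed the checkpoint complex, had a log2 fold change of -1.25 with an edgeR adjusted p of 0.0514, and shares 1981 of its 5161 bases of exon with Tomt on the opposite strand. Cdc27 had a log2 fold change of 0.81 (edgeR adjusted p = 0.143).

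Of 10 activators, inhibitors, E2 enzymes and substrates of the APC/C, 1 rose, 0 fell and 9 did not pass, with a median log2 fold change of 0.24. At an unadjusted p under 0.05, 3 were lower (Ccna2, Cdc20 and Ube2c), and DESeq2 called these 3. Ccnb2, a B-type cyclin that the APC/C destroys, was at 72.6, 143.1, 122 and 84.0 CPM in the buffer replicates and at 536.4, 202.1 and 227.3 CPM in the labelled ZP3 Trim-away replicates (log2 fold change 1.61, SE 0.40, edgeR adjusted p = 0.0475). Cdc20, the activator that the checkpoint sequesters, was at 288.3 to 649.7 CPM in the buffer group and 65.9, 213.8 and 183.9 CPM in the labelled ZP3 Trim-away replicates, without overlap, but its edgeR adjusted p was 0.0713. Ccna2 (cyclin A2) and Ube2c, an E2 enzyme of the APC/C, were also lower without overlap, with log2 fold changes of -1.09 and -0.76 and edgeR adjusted p of 0.0676 and 0.0988. Ccna2, Cdc20 and Ube2c share 510, 53 and 592 bases of exon with genes on the opposite strand, and reads from such overlaps cannot be assigned without knowing whether the counting used strand, which the sources used here do not say.

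Of 11 tested subunits of the phosphatases PP1 and PP2A, which oppose checkpoint kinases, 0 passed in either direction by edgeR, and 2 had an unadjusted p under 0.05 (Ppp2cb and Ppp1cb). DESeq2 called 1 (Ppp2cb). The median log2 fold change was 0.01. The catalytic subunits Ppp2cb and Ppp1cb had log2 fold changes of -2.01 and 0.74 without overlap between groups (edgeR adjusted p = 0.124 and 0.200), and Ppp2r1b and Ppp2r5d had 1.64 and -2.15. Ppp1cb shares 1908 of its 10913 bases of exon with Gm43312 on the same strand. Ppp2r1b and Ppp2r5d share 1429 and 121 bases of exon with genes on the opposite strand. Leaving out single libraries reduced the 5 calls over all lists to between 1 and 3. Spc25 was called without each of the 7 libraries, Anapc11 in 3 cases, Anapc7 in 2, Tpr in 1 (without buffer replicate 2) and Ccnb2 in 0. With labelled ZP3 Trim-away replicate 1 alone the calls were Anapc11, Anapc7, Ccnb2, Cdc20 and Spc24.

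**Figure D4:**
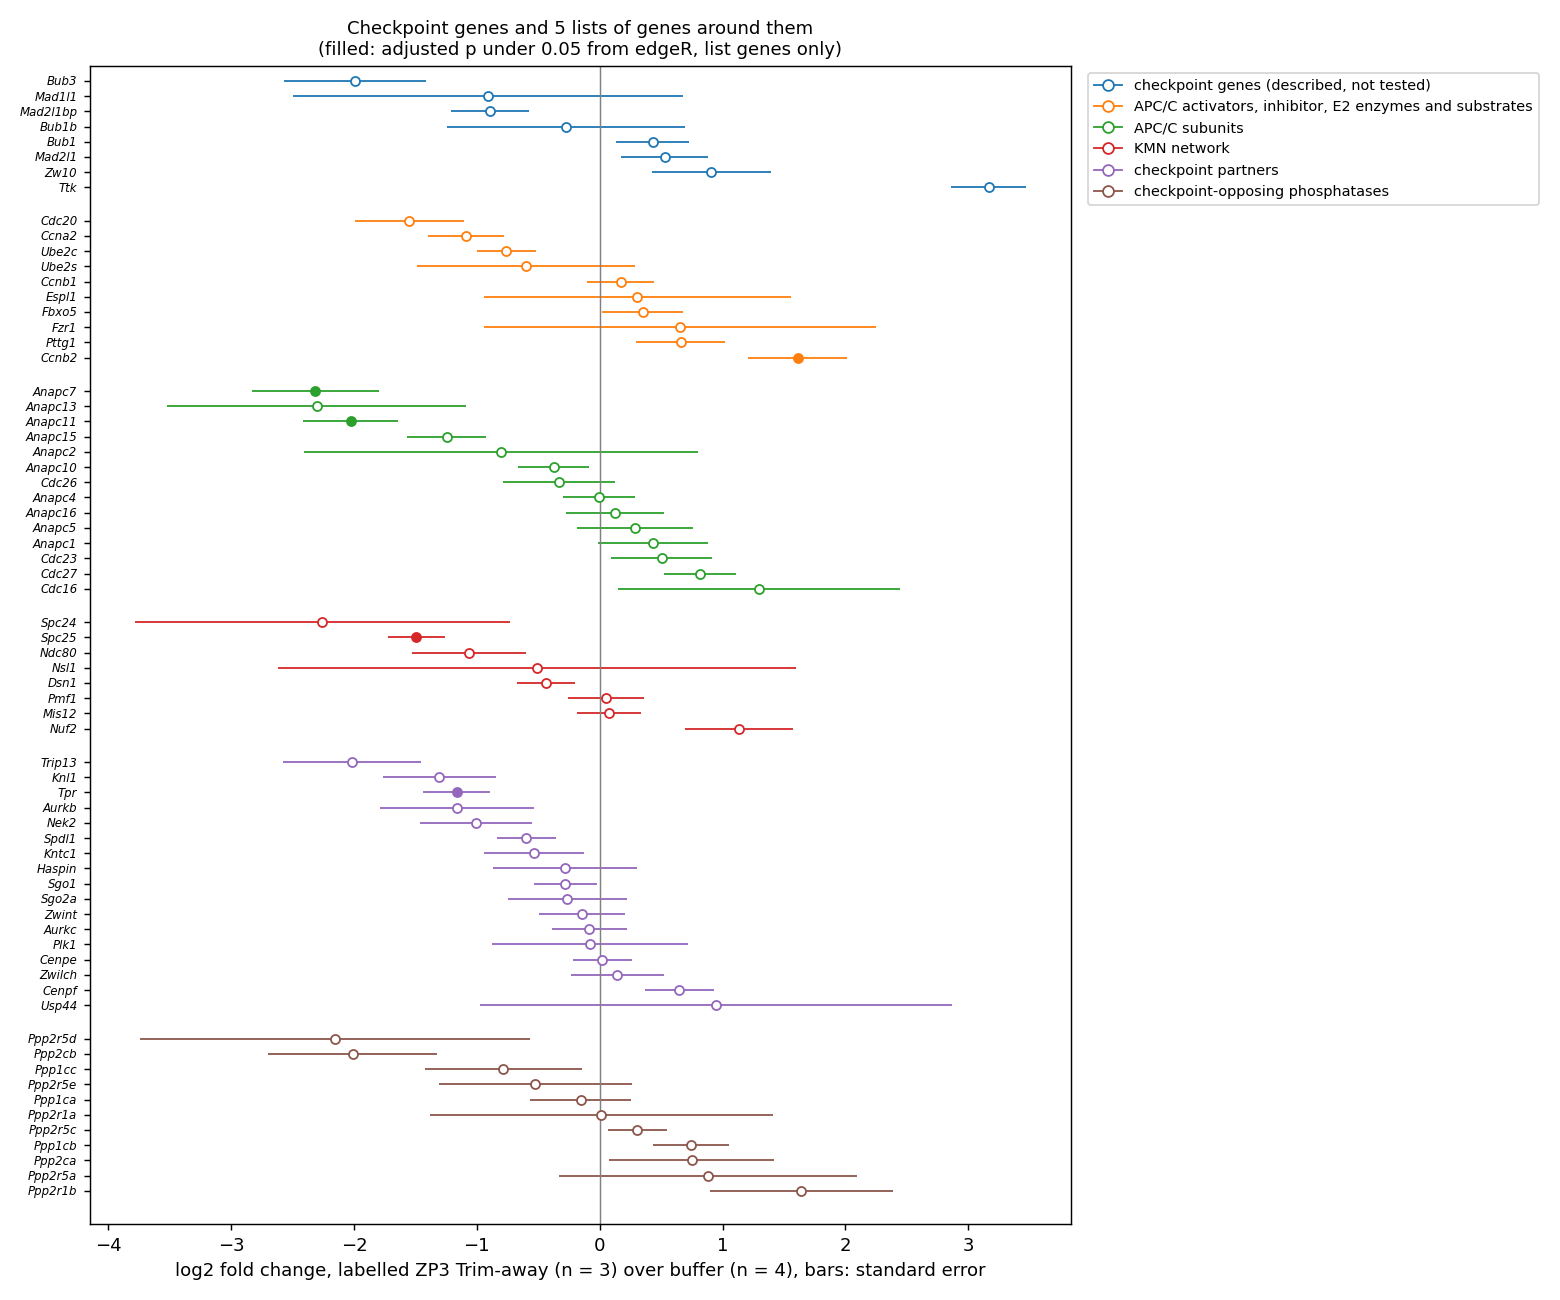
Log2 fold change of the labelled ZP3 Trim-away libraries over the buffer group (x axis, bars the standard error, n = 3 and n = 4) for the 8 checkpoint genes and 60 genes of the 5 lists, each list in its own colour, with filled points for list genes of an edgeR adjusted p under 0.05. Ttk at 3.17 lies to the right of all other points shown, Ccnb2 at 1.61 is the sole filled point above 0, and Tpr, Spc25, Anapc11 and Anapc7 are filled below 0.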

How the data were processed

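RNA-seq of 8 libraries of mouse embryos was analysed. The authors used FastQC 0.11.9 for quality control, Trimmomatic for trimming, Hisat2 for alignment of single-end reads (GRCm38), samtools for sorting and htseq-count for counting per Ensembl gene, and these deposited counts were analysed unchanged. The authors also deposited RPKM on the gene width with introns (median 4.17 times the summed exon length), which served only as an alternative. Positions and exon lengths came from GENCODE M21, which holds 52403 of the 52636 identifiers.

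Counts were filtered with filterByExpr, scaled by TMM and compared between the 3 labelled ZP3 Trim-away and 4 buffer libraries with the quasi-likelihood test of edgeR 4.0.16 (R 4.3.3), with Benjamini-Hochberg adjustment over 13641 genes at 0.05 and no covariate. CPM was computed with TMM over all 8 libraries, and log2 CPM used a prior count of 2. The standard error of a log2 fold change was its absolute value divided by the square root of the F statistic. With a common biological coefficient of variation of 1.16, small differences were seldom past the threshold. The fit was tested on simulated data. Alternatives used DESeq2 1.42.0, limma 3.58.1 (voom, and log2 of RPKM plus 0.1 or 1), other filters, a replicate block and left-out libraries. Figures were drawn with matplotlib 3.10.9 in Python 3.11.15.

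The 8 genes, the lists and the tests were chosen with earlier results of these data known. The text names all 8 genes, up to 4 genes of the smallest p in each list, the 5 genes most like Ttk, and Trim21 and Zp3. Spc24, Fshr the other markers at 0, Cenpf and Ppp2r5b were named after their values were seen. No 2 libraries of a group agreed within sampling noise.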

Additional observations from a re-analysis of the deposited data

Results flagged for a closer look

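Among the levels of the 8 genes in the buffer group, Mad1l1 in replicate 2 stood apart at 32.4 CPM, beside 10.4 to 13.7 CPM in the other 3 libraries. Its gap to the nearest library was 0.848 of the group's whole range, above Dixon's 95% critical value for 4 samples. Chance gives such a gap in about 1 in 20 groups, and 8 genes were examined.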

How the results depend on the processing

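The count of genes changed over the whole table was 941 of 13641. It was 2911 of 25623 by DESeq2, 1412 of 13641 by limma-voom and 1566 of 11416 by limma on log2(RPKM + 1). It ranged from 408 to 694 when single libraries were left out, and each library but labelled ZP3 Trim-away replicate 1 lowered it by over 1.5 times. Higher and lower calls numbered 407 and 534 by edgeR, 723 and 689 by limma-voom and 442 and 927 by limma on log2(RPKM + 0.1). Among the 8 checkpoint genes, 1 was called by edgeR, 2 by DESeq2, 3 by limma-voom, 2 with no filter on low counts, 2 by limma on RPKM with either pseudocount, and 2 with labelled ZP3 Trim-away replicate 1 alone, whose spread is then taken from the buffer group; leaving out single libraries gave 1 to 2. The genes added to Ttk were Bub3 and Mad2l1bp. Among the 60 list genes, 5 were called by edgeR, 13 by DESeq2, 8 by limma-voom, 8 and 10 by limma on log2(RPKM + 0.1) and log2(RPKM + 1), and 1 to 3 when single libraries were left out. The cause of these differences was not tested.

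Bub1b changed sign without replicate 2 of the labelled ZP3 Trim-away libraries (0.18) and with replicate 1 alone (0.78). The other 7 genes kept their direction in all 17 fits.

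Groups share replicate numbers, but the deviations of same-numbered libraries correlated at -0.06, 0.01 and 0.00, so no pairing by number was seen in these values. Whether same-numbered libraries shared a litter or an injection day is not in the labels and was not tested. The fit with a replicate block left out buffer replicate 4, which has no same-numbered library in the other group. In it 0 of 12914 genes passed (2000 at an unadjusted p under 0.05), with 0 of the 8 genes and 0 of the list genes. Ttk had a log2 fold change of 3.27 (edgeR adjusted p = 0.121). Leaving out buffer replicate 4 with no block gave 459 of 12914 genes. The block also leaves fewer degrees of freedom, and what lowered the count was not tested.

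With 3 and 4 libraries and this spread, overlapping groups do not show that levels are alike. Bub1b and Mad1l1 rest on the lowest counts, from 0 to 696 a library.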
